A study of Homo sapiens with 12 samples.

Results

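Ribosomal protein and translation factor genes are described here by the hnRNPK peaks called on them. They were chosen by symbol alone: protein-coding genes of GENCODE release 44 named RPL or RPS with a digit, RPLP0, RPLP1, RPLP2, RPSA, or starting with EEF or EIF. RPS6K names, RPS19BP1, RPS27L and EEF1A1 were left out. The rule gave 160 member genes of 20033 protein-coding genes on chromosomes 1 to 22, X and Y, and no measured value entered it. By role the members were 50 large subunit genes, 33 small subunit genes, 3 stalk protein genes, 49 initiation factor genes, 13 genes of elongation factors and their modifiers, 7 genes of initiation factor kinases and binding proteins, and 5 read-through records that join a member to its neighbour.

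The study asked how the long noncoding RNA CRLM1 affects where hnRNPK sits on chromatin, and performed ChIP-seq with an anti-hnRNPK antibody. The cells were HCT116, an established human colorectal carcinoma line, and hnRNPK was overexpressed in every group, the controls included. One group overexpressed CRLM1 from a lentiviral vector (CRLM1-OE), and the other groups carried an empty or an antisense control. Each of these 3 groups had 2 immunoprecipitated libraries, each with a matching input library and its own peak list, so 6 lists were compared.

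Ribosomal proteins and rRNA together form the ribosome, initiation factors bring mRNA and the small subunit together at the start codon, and elongation factors drive the addition of amino acids. The genes for ribosomal proteins and for several of the factors are among the most highly transcribed in dividing cells, and many of their mRNAs begin with a run of pyrimidines, the terminal oligopyrimidine (TOP) tract, through which mTOR signalling controls their translation. hnRNPK is a nuclear protein with KH domains that binds C-rich single-stranded RNA and DNA. Expression of the members was not analysed here, and its relation to the peaks was not tested.

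The lists used held 4339 and 3163 peaks in CRLM1-OE, 1619 and 2607 in the empty control, and 2262 and 2224 in the antisense control. The number of reads behind them is unknown. CRLM1-OE replicate 2 stood apart on the members: 28 of the 61 members with a peak on the gene body or 5 kb upstream in any list had one in that list alone. That is 45.9%, and among all protein-coding genes with a peak there in any list it was 17.7%; as shares of all genes in each set, the values were 17.5% of the members and 5.0% of protein-coding genes. Its peaks were also wide, with a median of 747 bp, whereas those of the other CRLM1-OE list had a median of 506 bp. The group differences below are therefore given with and without it. The part of peak width or of unequal depth in the results was not tested.

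The start sites of the 4 members with a peak within 1 kb of the gene's start in both CRLM1-OE lists are shown first, because these are the genes at which the promoter result rests on more than 1 library. Each run holds 100 bases before and 20 bases after the first base of the canonical transcript in hg38, 5′ to 3′ on the gene's strand, and capitals mark the C and T bases that follow each other from that first base. EIF1 lies at chr17:41688785-41688904 on the plus strand, RPL3 at chr22:39319604-39319723 on the minus strand, EIF4A1 at chr17:7572725-7572844 on the plus strand and RPS2 at chr16:1964807-1964926 on the minus strand.
EIF1: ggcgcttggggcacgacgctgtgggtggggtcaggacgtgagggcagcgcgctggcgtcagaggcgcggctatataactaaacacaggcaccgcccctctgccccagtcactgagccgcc
RPL3: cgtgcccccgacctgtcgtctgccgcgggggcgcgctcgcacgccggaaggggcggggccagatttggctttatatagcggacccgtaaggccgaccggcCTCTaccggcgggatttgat
EIF4A1: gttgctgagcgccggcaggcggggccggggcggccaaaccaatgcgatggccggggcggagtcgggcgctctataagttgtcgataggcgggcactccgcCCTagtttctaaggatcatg
RPS2: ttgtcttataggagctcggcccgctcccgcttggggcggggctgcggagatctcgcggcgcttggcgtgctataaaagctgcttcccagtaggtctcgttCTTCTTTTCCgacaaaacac
RPS2 began with an unbroken pyrimidine run of 10 bases, RPL3 with 4 and EIF4A1 with 3, whereas the first base of EIF1 was a G. In RefSeq promoters (GRCh38.p14; found for 128 members), 56 members, 43.8%, began with a C followed by a pyrimidine run of at least 5 bases in all, against 4.65% of the 15345 protein-coding genes with a promoter there. Among the 16 such members with a start peak in a CRLM1-OE list the count was 4, or 25.0%. The letters CCCTCCC, a C-rich core of elements that hnRNPK is known to bind, were searched on both strands from 250 bases before to 50 after the start, and 18.0% of member promoters held them against 30.6% of all. The letters TATA, searched after these sequences had been seen and only on the gene's strand between 40 and 20 bases before the start, were in 14.8% of member promoters and 7.57% of all.

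The second set of sequences lies past the 3′ ends of 4 members, where many of the members' highest-scoring peaks were found. These members had the best mean score rank among those with a stretch of 150 bases outside every annotated exon and inside an end region called in both CRLM1-OE lists. Each stretch was placed to hold a CCCTCCC match (in capitals) where the region allowed one, and otherwise as near the middle of the region as possible. They begin 1079 bases past the end of the canonical transcript of RPL38 (chr17:74211734-74211883, plus strand), 906 bases past that of RPS2 (chr16:1961003-1961152, minus strand), 762 bases past that of EIF4A2 (chr3:186790659-186790808, plus strand) and 1231 bases past that of RPL23A (chr17:28725590-28725739, plus strand).
RPL38: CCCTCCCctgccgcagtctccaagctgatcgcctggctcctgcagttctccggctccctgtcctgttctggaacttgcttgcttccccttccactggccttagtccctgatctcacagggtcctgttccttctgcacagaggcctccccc
RPS2: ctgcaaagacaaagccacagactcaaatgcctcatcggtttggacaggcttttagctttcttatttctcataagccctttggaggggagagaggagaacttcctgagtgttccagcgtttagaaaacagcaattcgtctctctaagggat
EIF4A2: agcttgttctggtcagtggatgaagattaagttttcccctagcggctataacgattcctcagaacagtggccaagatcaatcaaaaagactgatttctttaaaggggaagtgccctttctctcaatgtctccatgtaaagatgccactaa
RPL23A: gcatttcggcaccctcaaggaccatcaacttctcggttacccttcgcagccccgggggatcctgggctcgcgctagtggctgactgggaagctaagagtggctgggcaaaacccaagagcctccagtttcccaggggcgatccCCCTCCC
The stretches at RPL38 and RPL23A held 1 match each and were 62.0% and 62.7% G or C, while those at RPS2 and EIF4A2 held none and were 45.3% and 42.0% G or C. The end peaks of RPL38, RPS2 and RPL23A also met the start of a neighbouring gene, whereas those of EIF4A2 did not.

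The first comparison counted members with a peak on the gene body or within 5 kb upstream of the gene's start, the window that the study used to assign peaks to genes. More members carried such a peak in either CRLM1-OE list than in any control list, and in CRLM1-OE replicate 2 most of them were ribosomal protein genes. The counts were 18 and 41 of 160 members in CRLM1-OE, 2 and 2 in the empty control, and 10 and 6 in the antisense control. As percentages these were 11.2% (95% Wilson interval 7.24 to 17.1) and 25.6% (19.5 to 32.9) in CRLM1-OE, and 1.25% (0.343 to 4.44) in each empty control list, while the antisense control lists gave 6.25% (3.43 to 11.1) and 3.75% (1.73 to 7.94). The intervals cover counting error only.

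Over all 20033 protein-coding genes, the same window was met in 10.6% and 9.38% of genes in the CRLM1-OE lists, 3.5% and 5.71% in the empty control lists, and 5.7% and 5.84% in the antisense control lists. Against these shares only CRLM1-OE replicate 2 was well above the background, CRLM1-OE replicate 1 and the antisense lists were near it, and both empty control lists were below it. The members are short, with a median length of 11000 bp against 27500 bp for all protein-coding genes, so the comparison was repeated with the other genes weighted to the members' length and GC content. The weighted shares were 6.37% and 6.34% in CRLM1-OE, 1.67% and 3.04% in the empty control, and 3.22% and 3.44% in the antisense control. The ratio of the members' share to the weighted share was then 1.77 and 4.04 in the CRLM1-OE lists, 0.747 and 0.412 in the empty control lists, and 1.94 and 1.09 in the antisense control lists.

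**Figure D1:**
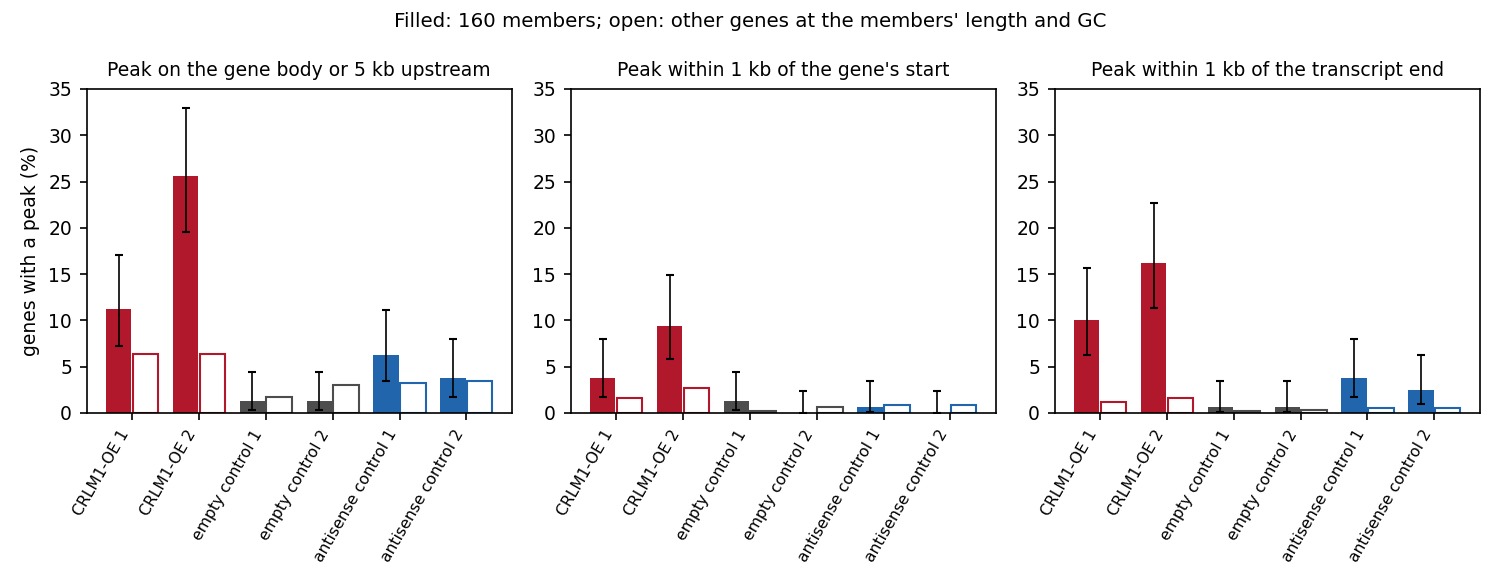
Percent of genes with a peak (y axis) in each of the 6 lists (x axis) for the 3 windows, for the 160 members (filled bars, with 95% Wilson intervals for counting error) and for other protein-coding genes weighted to the members' length and GC (open bars). The filled bar exceeds the open bar in both CRLM1-OE lists in every panel, and the ratio is largest within 1 kb of the transcript end, where 10.0% and 16.2% against 1.16% and 1.63% give ratios of 8.62 and 9.94.

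As a group the members' share was 18.4% ± 10.2 (SD, n = 2) in CRLM1-OE, 1.25% ± 0.0 (n = 2) in the empty control and 5.0% ± 1.77 (n = 2) in the antisense control. CRLM1-OE was thus 17.2 percentage points above the empty control and 13.4 points above the antisense control, against combined SDs of 10.2 and 10.3 points, and the lists did not overlap. With CRLM1-OE replicate 2 left out, CRLM1-OE was 10.0 and 6.25 points higher. No test is given, since 2 lists against 2 cannot reach an exact two-sided permutation p below 0.333.

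In CRLM1-OE, 8 members, 5.0%, had a peak in both lists, and in every one the peaks of both lists overlapped: EIF1, EIF3G, EIF4A1, RPL10, RPL3, RPL3L, RPS19 and RPS2. Over all protein-coding genes the share called in both CRLM1-OE lists was 2.52%. The 8 made up 44.4% of the members called in replicate 1 and 19.5% of those called in replicate 2, while for all genes the shares were 23.8% and 26.9%. No member was called in both empty control lists, against 0.669% of all genes, and none in both antisense control lists, against 0.884%. A peak in any list was found for 61 members, 38.1%, against 28.2% of all protein-coding genes. Of the 61, 41 had it in CRLM1-OE lists only, which is 25.6% of the members against 11.4% of all genes. In both CRLM1-OE and control lists there were 10, or 6.25% against 6.05%, and in control lists only another 10, or 6.25% against 10.8%. The members thus exceeded the background in the part called in CRLM1-OE lists only, and were near or below it in the parts that include a control. Of these 41 members, 28 were called in CRLM1-OE replicate 2 alone, which is 17.5% of the members against 5.0% of all genes. Most of the excess therefore rests on that list. The other 99 members had no peak in this window in any list.

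By role, the difference between the CRLM1-OE replicates lay in the ribosomal protein genes. Large subunit genes were called 4 and 24 times out of 50 in the CRLM1-OE lists, while the antisense control lists had 4 and 3 and the empty control lists none. Small subunit genes, 33 in all, were called 2 and 7 times in CRLM1-OE, and in the controls 1 time, in antisense control replicate 2. Initiation factor genes were called equally often in the replicates of CRLM1-OE, with 7 of 49 in each, and 2 and 0 times in the empty control and 3 and 2 times in the antisense control. Elongation factor genes and their modifiers, 13 in all, were called 2 and 1 times in CRLM1-OE, 0 and 2 times in the empty control, and 2 and 0 times in the antisense control. In the CRLM1-OE lists the shares were 8.0% and 48.0% of large subunit genes, 6.06% and 21.2% of small subunit genes and 14.3% of initiation factor genes in both. Against the unweighted 10.6% and 9.38% of all protein-coding genes, large and small subunit genes were lower in replicate 1 and well above in replicate 2. Initiation factor genes were slightly above in both lists. No share weighted to length and GC was computed by role. Against the 6.37% and 6.34% of other genes weighted to all 160 members, large subunit genes were above in replicate 1 and small subunit genes near it. Both were well above in replicate 2, and initiation factor genes were above in both lists. Of the 3 stalk proteins, which form the arm of the ribosome that recruits elongation factors, 1 had a peak, RPLP2 in CRLM1-OE replicate 2.

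**Figure D2:**
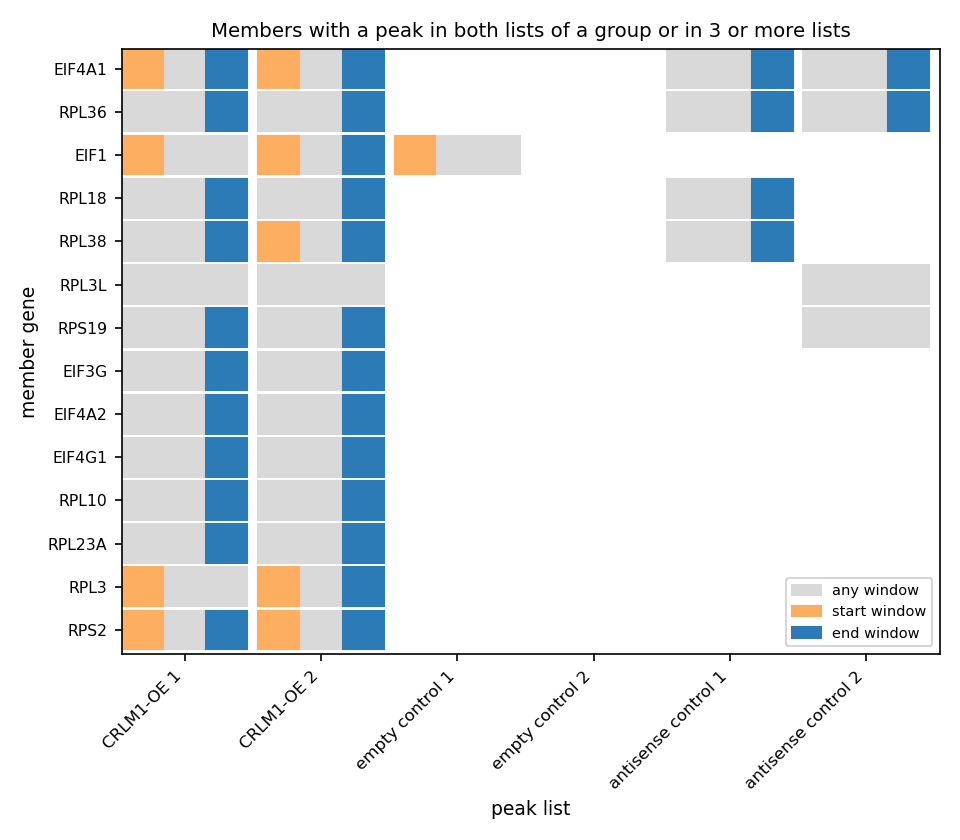
Members (rows) with a peak in any of the 3 windows in both lists of a group or in 3 or more of the 6 lists (columns). Grey marks a peak in any window, orange a peak within 1 kb of the gene's start and blue a peak within 1 kb of the transcript end. Of the 14 members shown, 7 are in 3 or more lists, and EIF4A1 and RPL36 are in both CRLM1-OE and both antisense control lists.

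The second comparison asked how many members had a peak within 1 kb of the gene's start, since the study turned on hnRNPK at promoters. The start site (TSS) was taken as the 5′ end of the gene record. The counts were 6 and 15 of 160 members in CRLM1-OE, 2 and 0 in the empty control, and 1 and 0 in the antisense control. That is 3.75% (95% Wilson interval 1.73 to 7.94) and 9.38% (5.76 to 14.9) in CRLM1-OE, 1.25% (0.343 to 4.44) and 0% (up to 2.34) in the empty control, and 0.625% (0.11 to 3.45) and 0% (up to 2.34) in the antisense control.

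All protein-coding genes gave 1.65% and 2.59% in CRLM1-OE, 0.19% and 0.544% in the empty control, and 0.839% and 0.889% in the antisense control. The members exceeded these shares in both CRLM1-OE lists, and the 2 members called in empty control replicate 1 were EIF1 and EIF4E2. Weighted to the members' length and GC, the other genes gave 1.6% and 2.64% in CRLM1-OE, and the ratios were 2.35 and 3.56. The weighted shares were 0.226% and 0.578% in the empty control, with ratios of 5.52 and 0, and 0.865% and 0.875% in the antisense control, with ratios of 0.723 and 0. The ratio of empty control replicate 1 was thus above both CRLM1-OE ratios, and it rested on 2 members. The members' mean was 6.56% ± 3.98 (SD, n = 2) in CRLM1-OE, 0.625% ± 0.884 (n = 2) in the empty control and 0.312% ± 0.442 (n = 2) in the antisense control. CRLM1-OE was 5.94 and 6.25 points higher (combined SDs 4.07 and 4.0), or 3.12 and 3.44 points higher without replicate 2.

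Start peaks in both CRLM1-OE lists were found at EIF1, RPL3, EIF4A1 and RPS2, the genes whose sequences are given above, which is 2.5% of the members against 0.349% of all protein-coding genes. In both lists of a control no member had one, whereas the shares of all genes were 0.02% (empty) and 0.0549% (antisense).

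EIF1, whose product holds the scanning small subunit open until the start codon is found, was the member with a start peak in the most lists. Its start peak scored 85.88 in CRLM1-OE replicate 1 (rank 243 of 4339) and 98.00 in replicate 2 (rank 210 of 3163), where the score is the authors' peak score and the lowest in a list is about 50. In empty control replicate 1 it scored 52.05 (rank 1264 of 1619), close to that floor, and in the other control lists it had no peak. Scores from different lists are not on a scale set by depth, so the ranks within a list are the safer guide.

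EIF4A1, the DEAD-box RNA helicase that unwinds mRNA during cap-dependent initiation, had a start peak that scored 69.14 in CRLM1-OE replicate 1 (rank 721) and 98.47 in replicate 2 (rank 208). RPL3, a large subunit protein close to the peptidyl transferase centre, scored 75.45 (rank 440) and 95.23 (rank 231). RPS2, a small subunit protein near the mRNA entry channel, scored 53.78 (rank 2858) and 63.92 (rank 993). RPS2 was therefore near the floor in replicate 1, while the other members of the 4 stood in the upper parts of both lists. EIF4E2, a cap-binding relative of EIF4E that represses translation, was called with scores of 56.81 in CRLM1-OE replicate 2 (rank 1698) and 51.62 in empty control replicate 1 (rank 1339), and that peak also lay at the start of TIGD1.

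The positions of the peaks showed a further feature. Around the canonical transcript, the members' peaks gathered just past the 3′ end in both CRLM1-OE lists, and in replicate 2 also at the start. In CRLM1-OE replicate 2, 13.8% of the members had a peak over the position 400 bp past the end, the highest of any position from 3000 bp before to 5000 bp after it, against 0.813% of other genes of like length and GC. In CRLM1-OE replicate 1 the highest value, 8.12%, lay 1200 bp past the end, against 0.381% of the others. In the antisense control lists the highest values were 3.75% at 1500 bp and 2.5% at 1000 bp past the end, against 0.151% and 0.236% of the others. In empty control replicate 2 it was 1.88%, or 3 members, at 1800 bp past the end, against 0.142%, and in empty control replicate 1 it was 0.625%, a single member. At the start the highest value in CRLM1-OE replicate 2 was 10.0%, at 100 bp past the start, against 1.91%. CRLM1-OE replicate 1 had 2.5% at the same position, against 1.01%, and its own highest value in this profile, 4.38% against 0.193%, lay 4600 bp past the start.

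**Figure D3:**
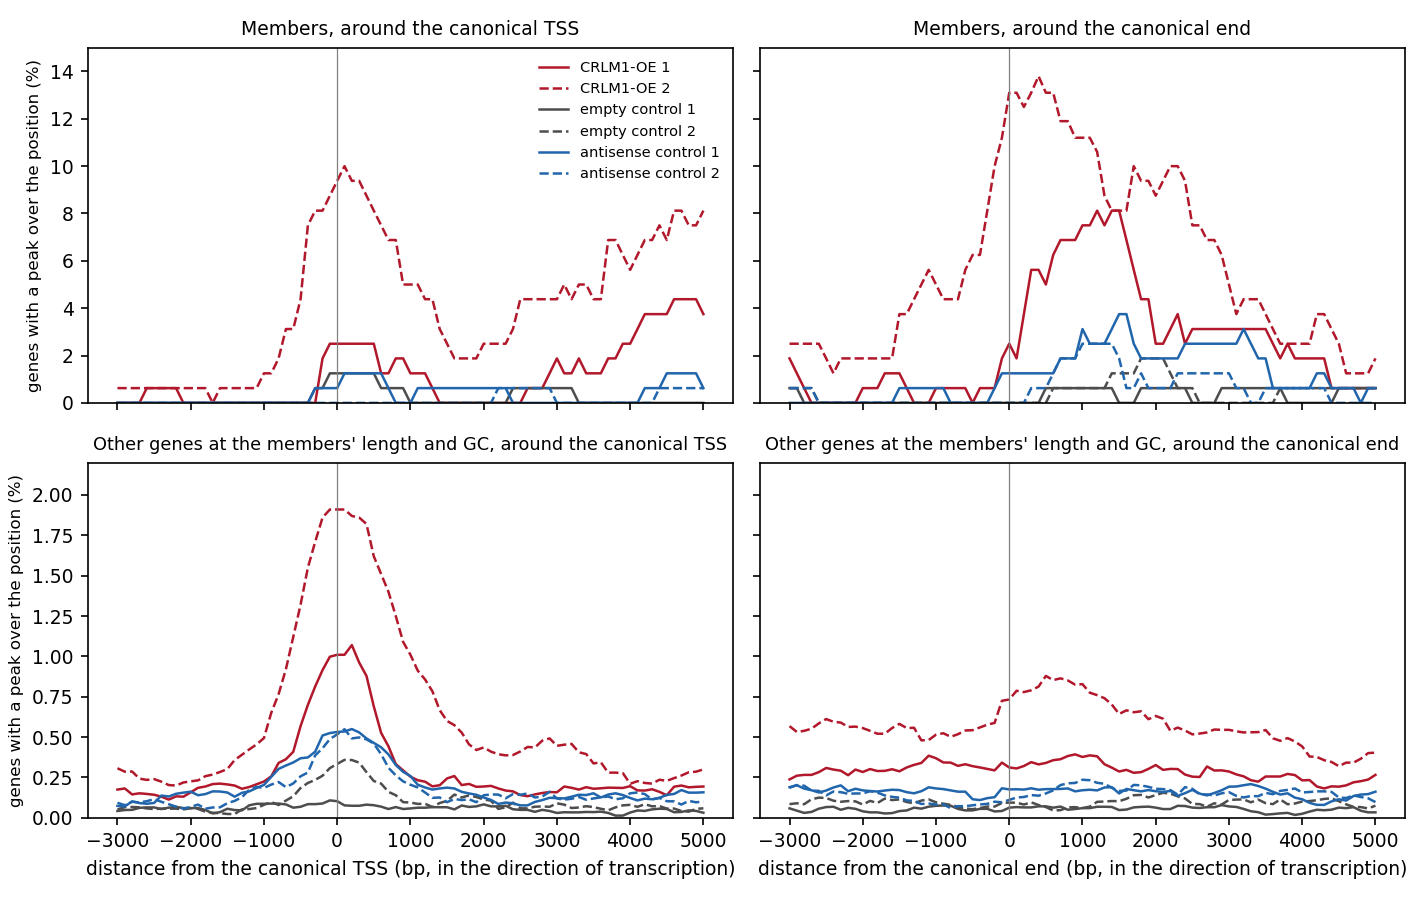
Percent of genes with a peak over each position (y axis) against the distance in bp from the start (left) and end (right) of the canonical transcript, for the 160 members (top) and for other protein-coding genes weighted to the members' length and GC (bottom, with its own y scale). Solid lines are replicate 1 and dashed lines replicate 2. Among the members the maximum lies past the end, at 400 bp (13.8%) in CRLM1-OE replicate 2, while in the other genes both CRLM1-OE lines are highest at the start.

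A window of 1 kb on either side of the canonical transcript's 3′ end was therefore counted as well. It was chosen after these positions had been seen, so its counts describe the pattern and do not test it. The counts were 16 and 26 of 160 members in CRLM1-OE, 1 and 1 in the empty control, and 6 and 4 in the antisense control. All protein-coding genes gave 1.15% and 1.53% in CRLM1-OE, 0.2% and 0.344% in the empty control, and 0.529% and 0.499% in the antisense control. The members' shares of 10.0% (95% Wilson interval 6.25 to 15.6) and 16.2% (11.3 to 22.7) in CRLM1-OE were 8.62 and 9.94 times the length- and GC-weighted shares of other genes. In the antisense control, where 3.75% and 2.5% of the members were called, the ratios were 7.54 and 5.32, and in the empty control, with 1 member in each list, they were 3.39 and 1.92.

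Unlike the other windows, this one gave similar ratios in both CRLM1-OE replicates. The mean was 13.1% ± 4.42 (SD, n = 2) in CRLM1-OE, 0.625% ± 0.0 (n = 2) in the empty control and 3.12% ± 0.884 (n = 2) in the antisense control. The differences were 12.5 and 10.0 points, with combined SDs of 4.42 and 4.51, and 9.38 and 6.88 points without CRLM1-OE replicate 2. Of the 16 peaks that met this window in CRLM1-OE replicate 1, 14 had their midpoint past the end, with a median of 888 bp past it over all 16. Of the 28 in replicate 2, 21 had their midpoint past the end, with a median of 435 bp, and 21 covered the end itself. None of these peaks also met the 1 kb window around the start of its own gene record, which at RPL36 lies apart from the start of the canonical transcript. The end peak of RPL36 in CRLM1-OE replicate 2 came within 39 bp of that canonical start, and the one in antisense control replicate 1 within 31 bp, with its midpoint 392 bp past it. For these 2 peaks, at a short transcript, a place at its start or at its end cannot be told apart, and without them the counts were 16 and 25 in CRLM1-OE, 1 and 1 in the empty control, and 5 and 4 in the antisense control.

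Both CRLM1-OE lists called 11 members at the end, or 6.88%, against 0.344% of all protein-coding genes: EIF3G, EIF4A1, EIF4A2, EIF4G1, RPL10, RPL18, RPL23A, RPL36, RPL38, RPS19 and RPS2. In 10 of them the peaks of the lists overlapped, the exception being RPL36. Both antisense control lists called 2 members, EIF4A1 and RPL36, or 1.25% against 0.0499% of all genes, with overlapping peaks at EIF4A1 only and, at RPL36, with the replicate 1 peak that lies near the canonical start. Both empty control lists called no member, against 0.025% of all genes. EIF4A1, EIF4G1 and EIF3G belong to the machinery that loads the small subunit on capped mRNA, with EIF4G1 as its scaffold and EIF3G as an RNA-binding subunit of eIF3.

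By role, large subunit genes were called at the end 6 and 17 times in CRLM1-OE and 4 and 3 times in the antisense control, and never in the empty control. Small subunit genes were called 3 times in each CRLM1-OE list, 1 time in each empty control list, and in the antisense control 1 time in replicate 1 and not in replicate 2. Initiation factor genes were called 7 and 6 times in CRLM1-OE, 0 times in both empty control lists and 1 time in each antisense control list. Of the 13 genes of elongation factors and their modifiers, none was called at the end in any list. All protein-coding genes gave 1.15% and 1.53% at the end in CRLM1-OE, and less in every control list. Large subunit, small subunit and initiation factor genes were above these unweighted shares in both CRLM1-OE lists. With 13 genes and so low a background, the absence of elongation factor genes cannot be told apart from the background.

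EIF4A1 was called at its end in 4 of the 6 lists. The end peak scored 129.52 (rank 76) and 234.10 (rank 29) in CRLM1-OE and 95.15 (rank 52 of 2262) and 68.55 (rank 294 of 2224) in the antisense control, and no end peak was called in the empty control. This peak covers or follows the transcript end and also lies at the start of the neighbouring gene CD68. RPL38, a small protein of the large subunit, scored 231.52 (rank 24) and 188.16 (rank 50) in CRLM1-OE and 51.21 (rank 1951) in antisense control replicate 1, and its peak reached the start of TTYH2. RPL18 scored 122.50 (rank 83) and 326.49 (rank 14) in CRLM1-OE and 70.57 (rank 298) in antisense control replicate 1, at the start of FAM83E.

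RPL23A, which lines the exit of the nascent chain from the ribosome, scored 371.12 in CRLM1-OE replicate 2 (rank 5), the highest score among the peaks on members' bodies in that list, and 72.22 in replicate 1 (rank 558). The RPL23A peak also met the start of NEK8 in both lists and that of TLCD1 in replicate 2. RPS19, a small subunit protein mutated in Diamond-Blackfan anaemia, scored 338.34 (rank 10) and 67.41 (rank 823). Its peak in antisense control replicate 2 scored 50.81 and lay upstream of the gene, not at its end. The end peak of RPS2 scored 211.80 (rank 40) and 126.37 (rank 79), and the same peaks fell in the upstream window of RPL3L, a relative of RPL3 found in muscle, so these genes are not independent entries. In both lists these peaks also met the start of NDUFB10. RPL3L was also called upstream in antisense control replicate 2, with a score of 60.65 (rank 655).

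The EIF4A2 end peak, at a close relative of EIF4A1, scored 131.33 (rank 71) in CRLM1-OE replicate 1 and 115.53 (rank 129) in replicate 2, and it met no other gene's start. In the other lists the member with the highest-scoring peak on the gene body or upstream was EIF4A1 in CRLM1-OE replicate 1 and in antisense control replicate 1. It was EIF1 in empty control replicate 1, EEF1AKMT2, a lysine methyltransferase of elongation factor 1A, in empty control replicate 2 with 57.04 (rank 1328 of 2607), and RPL19 in antisense control replicate 2 with 105.96 (rank 29), a peak that also lay at the start of CACNB1. The end peak of empty control replicate 1 was at RPS28, with a score of 66.96 (rank 295).

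**Figure D4:**
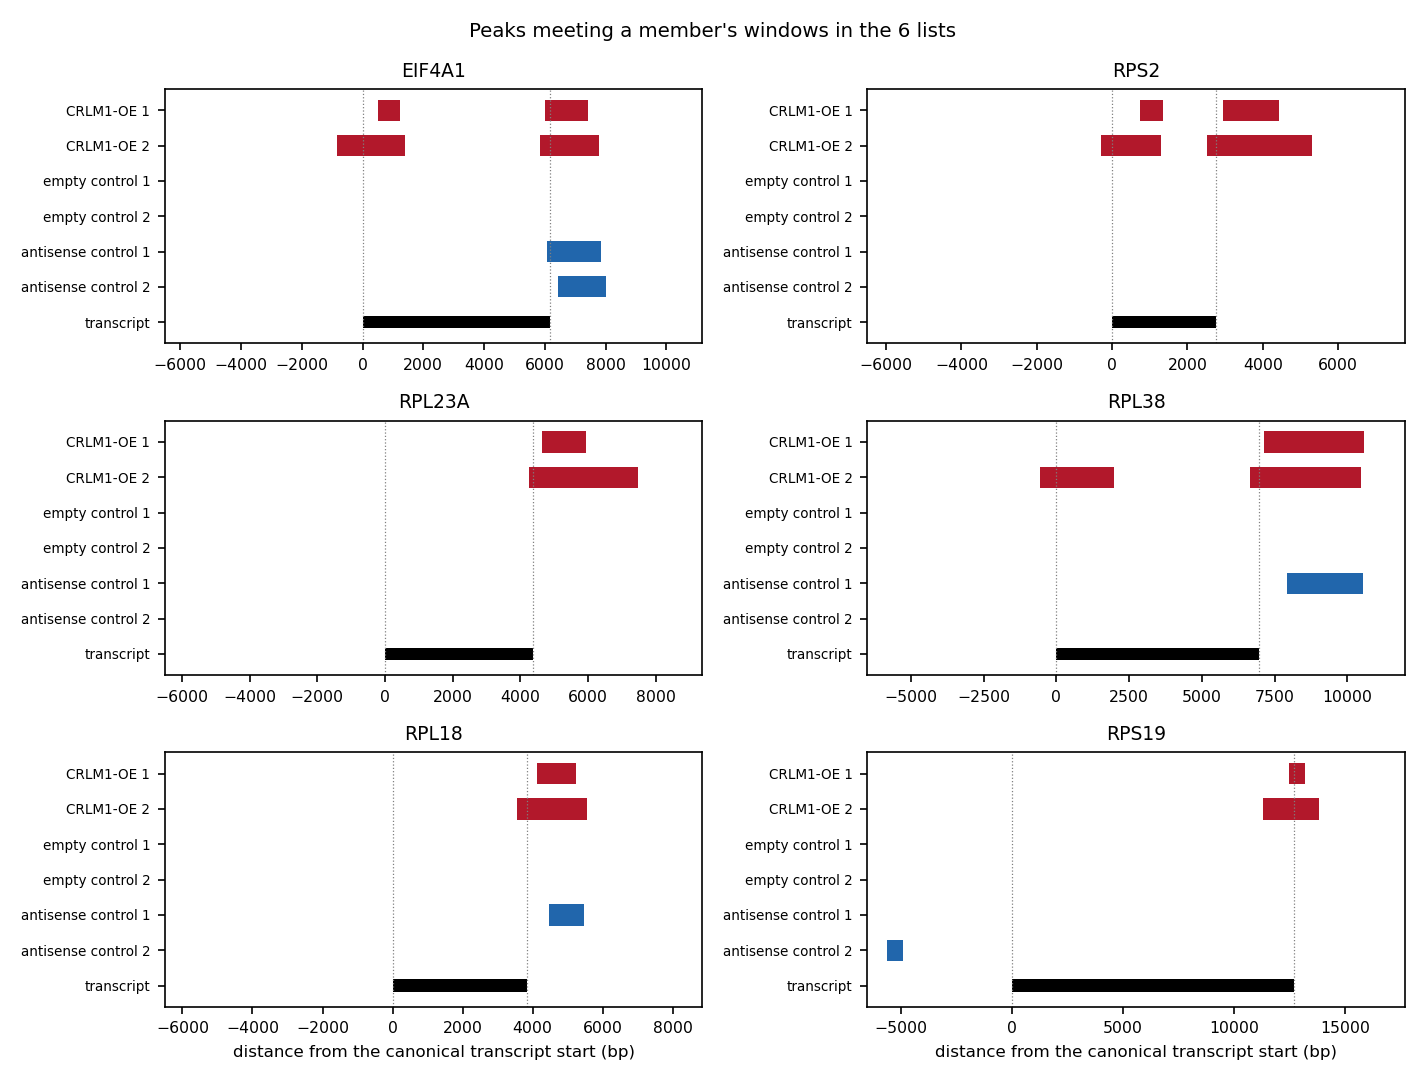
Peaks on or near 6 members in the 6 lists (coloured bars), drawn to scale against the distance in bp from the canonical transcript start (x axis), with the transcript as a black bar and dotted lines at its start and end. In all 6 members both CRLM1-OE lists have a peak over or just past the end, EIF4A1 has it in both antisense control lists too, and no empty control list has a peak in any of them.

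Many peaks near members also touched other genes. Of the distinct peaks meeting any of the 3 windows, 31 in CRLM1-OE replicate 1 and 55 in replicate 2, 20 and 34 also met the body or upstream window of another protein-coding gene, and 11 and 17 met another gene's start. Among the end peaks, 8 of 16 and 10 of 28 met another gene's start. With those left out, 8 and 17 members had an end peak in the CRLM1-OE lists, 1 and 0 in the empty control lists, and 2 and 3 in the antisense control lists. The share of all protein-coding genes with such peaks left out was not computed, so these counts have no background beside them. To which of the neighbouring genes such a peak belongs cannot be told apart.

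The members' peaks ranked high in the CRLM1-OE lists. Their median rank was at 19.0% and 19.6% of the list from the top, against 49.6% and 45.8% for peaks on other genes. In the antisense control lists it was 48.7% and 28.8%, against 47.8% and 51.4%, and in the empty control lists, with 3 member peaks each, 78.1% and 50.9%, against 50.3% and 52.1%. Among the 100 highest-scoring peaks of a list, 5 and 15 met a member in CRLM1-OE, 0 and 0 in the empty control, and 2 and 2 in the antisense control. Peaks on other genes took 42 and 63 of these 100 places in CRLM1-OE, 38 and 13 in the empty control, and 60 and 44 in the antisense control. In all there were 31 and 55 member peaks and 2270 and 1778 peaks on other genes in CRLM1-OE. The antisense control lists had 12 and 9 against 1139 and 1157, and the empty control lists 3 in each against 726 and 1311. Of the member peaks among the 100 highest-scoring, 5 and 14 in the CRLM1-OE lists were end peaks. They included RPL8 (score 272.46), RPL10 (212.84), RPL13 (209.23), RPL13A (208.46), RPL3 (173.25) and RPL41 (164.10) in replicate 2, all large subunit genes. Of these peaks, the one at RPL8 also met the start of ZNF34, and the one at RPL41 met the starts of ESYT1 and ZC3H10.

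**Figure D5:**
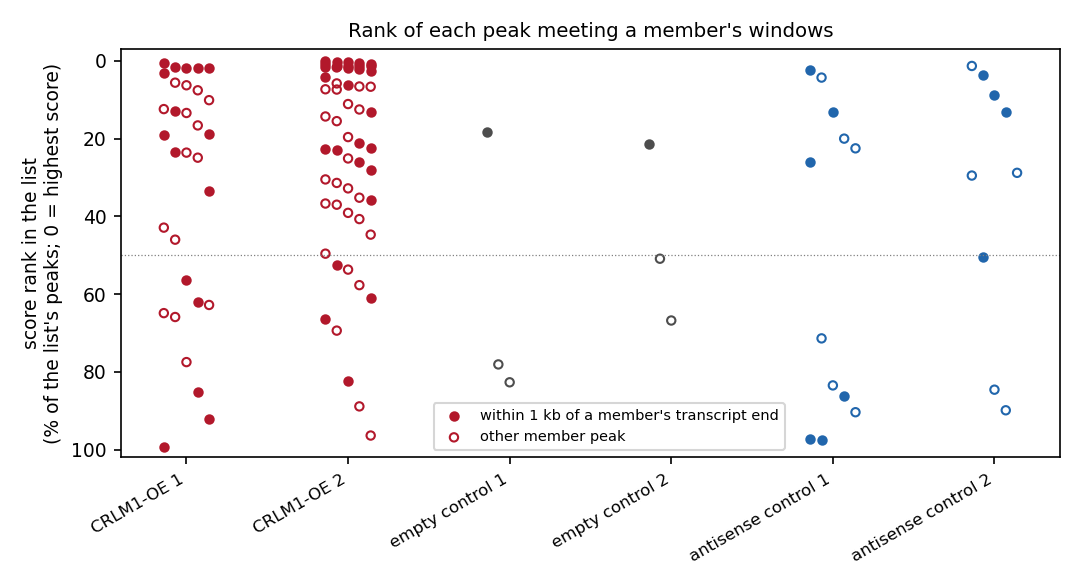
Rank of each member peak by score within its list (y axis, percent of the list's peaks, 0 at the highest score) in the 6 lists (x axis). Filled points are peaks within 1 kb of a member's transcript end and open points are other member peaks. In CRLM1-OE replicate 2 the filled points crowd at the top, 14 of them among the list's 100 highest-scoring peaks.

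The member peaks were wider than peaks on other genes, and richer in G and C than all peaks of their list except in empty control replicate 2. In the CRLM1-OE lists they had a median width of 739 and 1420 bp, against 512 and 796 bp for peaks on other genes. Their median GC content was 54.7% and 54.2%, against 43.3% and 42.3% over all peaks. CCCTCCC on either strand was in 21 of 31 and 35 of 55 of them (67.7% and 63.6%), against 21.3% and 30.7% of all peaks, which are narrower. All peaks include those away from any protein-coding gene. Neither GC nor CCCTCCC was measured for peaks on other genes alone, so a trait of peaks on genes in general cannot be told apart here. Per kb the member peaks held 1.37 and 1.14 matches and all peaks 0.698 and 0.841. The antisense control lists showed the same order, with median widths of 875 and 818 bp against 758 and 672 bp, a median GC of 55.6% and 55.5% against 40.9% and 41.1%, and 1.43 and 1.85 matches per kb against 0.725 and 0.831. In the empty control, with 3 member peaks in each list, the widths were 954 and 578 bp against 734 and 514 bp and the GC 64.6% and 43.4% against 37.4% and 43.9%. The matches per kb there were 1.67 and 0.992, against 0.356 and 0.678. In the CRLM1-OE lists the member peaks at the transcript end held 1.38 and 0.928 matches per kb, the latter close to the 0.841 of all peaks. A match describes the letters only, and whether it reflects GC content was not tested.

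Genes related to the members by function were counted for comparison, from lists given by symbol. In the gene body and upstream window, mitochondrial ribosomal protein genes, 78 in all, were called 4 and 6 times in CRLM1-OE, 1 and 1 times in the empty control, and 2 and 1 times in the antisense control. In each CRLM1-OE list their share, 5.13% and 7.69%, was below the 10.6% and 9.38% of all protein-coding genes. The shares of all genes set beside these related lists are not weighted to length and GC. No weighted share was computed for the lists, so they cannot be set against the members' ratios. The 40 proteasome subunit genes were called 0 and 4 times in CRLM1-OE, and 1 time in the controls, in antisense control replicate 1. Their share of 10.0% in CRLM1-OE replicate 2 was near the 9.38% of all genes. The 20 cytosolic aminoacyl-tRNA synthetase genes, which charge tRNAs, were called 1 and 0 times in CRLM1-OE, 0 and 1 times in the empty control and 0 and 1 times in the antisense control.

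Closer to the members stood 9 other genes whose mRNAs carry a TOP tract, EEF1A1 among them: 3 were called in each CRLM1-OE list, 0 and 1 in the empty control and none in the antisense control. That is 33.3% in each CRLM1-OE list, against 10.6% and 9.38% of all protein-coding genes, and it rests on 3 genes per list. At the transcript end 3 and 4 of these 9 were called in the CRLM1-OE lists, and none in any control list, whereas mitochondrial ribosomal protein genes were called there 3 and 2 times of 78 in CRLM1-OE. These end shares were 33.3% and 44.4% for the TOP genes and 3.85% and 2.56% for the mitochondrial ones, against 1.15% and 1.53% of all genes. Of 20 ribosome biogenesis genes, 3 were called on the body or upstream in each CRLM1-OE list, 0 in both empty control lists, and 1 and 2 in the antisense control. The 6 termination and recycling factor genes were called 1 and 0 times in CRLM1-OE and not in the controls. The 6 S6 kinase and mTOR genes, which signal to the ribosome, were called 0 and 1 times in CRLM1-OE, 0 and 1 times in the empty control and 1 and 0 times in the antisense control. Of the 3 names that the rule leaves out, 1 was called in each CRLM1-OE list and none in a control.

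Members on chromosome 19 made up a larger part of the members called in CRLM1-OE replicate 2 than of all members. There were 15 members on it, 9.38%, against 7.37% of all protein-coding genes, and of the 41 members called in CRLM1-OE replicate 2 there were 9, or 22.0%. The chromosome 19 share of all protein-coding genes called in that list was not computed. Whether the rise is particular to the members therefore cannot be told. The share was not computed for the other lists. The 41 were also shorter and richer in G and C, with a median length of 7100 bp and 50.9% GC, than the 99 members without a peak in any list, with 11100 bp and 45.9%. The part of chromosome, length and GC in which members were called was not tested beyond the weighting given above.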

How the data were processed

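Peak lists of 6 hnRNPK immunoprecipitations were read. According to the methods of the study, cutadapt trimming and Bowtie2 alignment to GRCh38 came first, and MACS2 then compared each immunoprecipitation with its input at a q-value cutoff. That replicates were called separately is inferred from there being a list for each, since the methods do not state it. In the lists as deposited by the authors, every peak has an interval, a name and a score. The scores start at about 50, which older MACS settings would also give, so the exact settings are uncertain. Replicates are those of the labels. The autosomes, X and Y held 16214 of the 16768 peaks, and the rest were left out. Depth is unknown, which limits precision, and input libraries entered only through the calls. The number of value columns left unused was 0.

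A window was met when a peak overlapped it by at least 1 bp. Genes, the Ensembl canonical transcripts and their ends came from GENCODE release 44, sequence from hg38, and promoters from RefSeq. For the weighted share, non-member genes were put in 5 by 5 quantile bins of length and GC content of the window, and the share of each bin was averaged over the members. Python 3.11.15, NumPy 2.4.6 and pandas 2.3.3 were used, and the code was tested on simulated data. Named were members with a start peak in 2 or more lists, members with a gene or upstream peak in 3 or more lists, and the top-scoring member of each list; other names, all those chosen for end peaks among them, were picked after their values were seen. Some values are not reported here. The members and gene lists were chosen with earlier results of these data known. Group values are means of 2 lists with no test. Alternatives covered peak subsets, midpoints, window sizes, member subsets, bins and left-out lists.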

Additional observations from a re-analysis of the deposited data

How the results depend on the processing

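No paired analysis was possible because the results come from no test. Of 125 alternative values, 115 moved by less than the spread between replicates, or for counts by under 1.5 times. No difference or ratio changed direction, whereas a count has no direction to change. Leaving out a list always moves a difference by less than that spread, so for those values the outcome was fixed in advance and their ranges are given instead. With each list left out in turn, the CRLM1-OE minus empty control difference ran from 10.0 to 24.4 points on the gene body or upstream, 3.12 to 8.75 at the start and 9.38 to 15.6 at the end. Against the antisense control it ran from 6.25 to 20.6, 3.44 to 9.06 and 6.88 to 13.1 points. The CRLM1-OE ratio ran from 1.77 to 4.04, 2.35 to 3.56 and 8.62 to 9.94, the lower value in each being that without replicate 2. The count of members called in both CRLM1-OE lists changed most. On the body or upstream it fell from 8 to 5 with the 1000 highest-scoring peaks and to 5 with peaks at or above the median score. At the start it fell from 4 to 2 with peak midpoints and to 1 within 500 bp. At the end it fell from 11 to 7 with the 1000 highest-scoring peaks and to 6 with midpoints; fewer peaks or a smaller target were left in each. The end ratio of 9.39 became 11.9 with the 1000 highest-scoring peaks, 11.2 with core members, 10.5 within 500 bp and 8.28 within 2 kb; the cause was not tested. The end window and its alternatives were added after the data were seen. Widths and peak numbers differ between lists and depth is unknown, so a difference in how many members were called cannot be separated from a difference in sensitivity between libraries.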
